A study of Mus musculus with 70 samples.

Results

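Lysozymes, cathepsins and cystatin C were followed as 10 genes in RNA of sorted mouse leukocytes: the lysozymes Lyz1 and Lyz2, the cathepsins Ctsb, Ctsc, Ctsd, Ctsh, Ctsl, Ctss and Ctsz, and the cathepsin inhibitor Cst3. They were chosen by name with earlier results of these data known, and all 10 were found among the 52636 genes of the count table. The mice were C57BL/6J, 7 weeks old at purchase. Control mice (CON) were not stressed. The others went through chronic social defeat stress (CSDS), 10 days of attacks by an aggressive CD-1 mouse that was otherwise kept across a perforated divider. A social interaction test 24 h after the last defeat then split the defeated mice. Those with a social interaction ratio under 1 were called susceptible (SUS), and those at 1 or above resilient (RES). Leukocytes from trunk blood were sorted on CD11b, Ly6C, Ly6G, B220 and CD90.2 into T cells, B cells, Ly6C-low monocytes (labelled Ly6low) and Ly6C-high monocytes (labelled Ly6high), and stranded total RNA-seq libraries were made from each sort. The labels name brain as the tissue, whereas the study's methods and the series' design describe blood leukocytes. Of 70 libraries, 68 were used, with 6 CON, 6 SUS and 6 RES of Ly6C-high monocytes, 4, 6 and 6 of Ly6C-low monocytes, and 6, 6 and 5 of both B and T cells.

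Cathepsins are proteases of endosomes and lysosomes, which work at acid pH and are made as inactive precursors. Most cathepsins in this set are cysteine proteases, and Ctsd is an aspartic protease. Macrophages and monocytes use them to break down engulfed material and to trim antigens and the invariant chain for presentation, and can also release them. Lysozyme cleaves the peptidoglycan of bacterial walls. Cystatin C, the product of Cst3, is a secreted inhibitor that binds the active site of cysteine cathepsins and does not act on Ctsd.

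The libraries held 19769835 to 67038231 counts. Mitochondrial genes took 3.66 to 18.4% of counts, and the noncoding RNAs Gm23935 and Gm26917 together 0.395 to 41.0%. Markers of the labelled cell type followed the labels in 68 libraries. In CON libraries Ly6c2 averaged 268 CPM (counts of a gene per 1000000 counts) in Ly6C-high and 0.689 CPM in Ly6C-low monocytes, Cd300e averaged 0.298 and 323 CPM, Cd79a averaged 1539 CPM in B cells, and Cd3e averaged 443 CPM in T cells. The sum of 4 natural killer cell markers averaged 447, 460 and 672 CPM in CON, SUS and RES libraries of Ly6C-low monocytes. In Ly6C-high monocytes it averaged 11.1, 5.39 and 11.6 CPM, and its part in the members' values was not tested. Library 52, labelled as B cells from RES mice, held Cd79a at 5.76 CPM and Cd3e at 412 CPM. Library 70, labelled as T cells from RES mice, held Cd79a at 1417 CPM and Cd3e at 0.143 CPM. Both were left out. Libraries are named by the number of their column. Labels name no mouse, so p-values measure the spread between libraries. CPM were scaled by TMM over the 68 libraries used, and those of libraries 52 and 70 over all 70 libraries. Tests between conditions were scaled within each cell type.

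Lyz1 and Lyz2 lie side by side on the minus strand of chromosome 10 (GRCm38/mm10), Lyz1 at chr10:117287797-117292868 and Lyz2 at chr10:117277331-117282321. Lyz2 is the myeloid lysozyme, and Lyz1 is best known from Paneth cells of the intestine. Their coding sequences, read from the reference transcripts, are each 447 bases long and differ at 22 bases (95.1% equal), and the 148 encoded residues differ at 12. The first 300 coding bases are shown because reads must tell these genes apart at the letters in capitals, which mark the 20 bases that differ.
Lyz1: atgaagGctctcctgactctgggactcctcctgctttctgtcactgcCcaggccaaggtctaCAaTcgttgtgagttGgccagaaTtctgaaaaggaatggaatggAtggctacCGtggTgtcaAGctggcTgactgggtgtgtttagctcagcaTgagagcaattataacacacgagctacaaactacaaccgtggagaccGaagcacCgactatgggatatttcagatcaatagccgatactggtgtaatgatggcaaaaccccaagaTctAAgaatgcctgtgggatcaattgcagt
Lyz2: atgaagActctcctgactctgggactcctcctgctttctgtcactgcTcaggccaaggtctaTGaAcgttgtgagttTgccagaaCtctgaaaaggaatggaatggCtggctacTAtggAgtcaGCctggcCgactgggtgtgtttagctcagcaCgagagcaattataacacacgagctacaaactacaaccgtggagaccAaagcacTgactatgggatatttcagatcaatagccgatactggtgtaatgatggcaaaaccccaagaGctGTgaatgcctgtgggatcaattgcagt
The longest stretch without a difference was 118 bases, and of 1114 windows of 150 bases in the Lyz1 transcript 0 occurred whole in the Lyz2 transcript. How the authors' counting treated reads that match both genes is not given in the sources used here, so the low Lyz1 values beside the abundant Lyz2 are uncertain.

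In CON mice the order of the cell types differed between the members (the plot of log2 levels by cell type shows all 68 libraries). Lyz2 was at 15119 ± 1135 CPM (SD, n = 6) in Ly6C-high monocytes and 3580 ± 358 CPM (SD, n = 4) in Ly6C-low monocytes, but at 27.6 ± 7.25 CPM (SD, n = 6) in B cells. Ctss, which trims the invariant chain in antigen-presenting cells, was at 1786 CPM in Ly6C-high and 1049 CPM in Ly6C-low monocytes, 574 CPM in B cells and 151 CPM in T cells. Ctsd followed no such order, with 116 ± 17.2 CPM in T cells (SD, n = 6), 88.3 ± 13.9 CPM in Ly6C-low monocytes (SD, n = 4), 64.7 ± 14.5 CPM in Ly6C-high monocytes (SD, n = 6) and 28.6 ± 6.07 CPM in B cells (SD, n = 6). Its CON libraries of Ly6C-high monocytes, at 41.2 to 83.1 CPM, overlapped those of Ly6C-low monocytes, at 75.5 to 106 CPM, and those overlapped the T-cell libraries, at 92.3 to 140.4 CPM. Ctsh, an aminopeptidase, was at 309 ± 14.0 CPM in Ly6C-high monocytes and 233 ± 17.3 CPM in B cells (SD, n = 6 each), without overlap. It was at 0.0416 to 4.47 CPM in T cells.

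**Figure D1:**
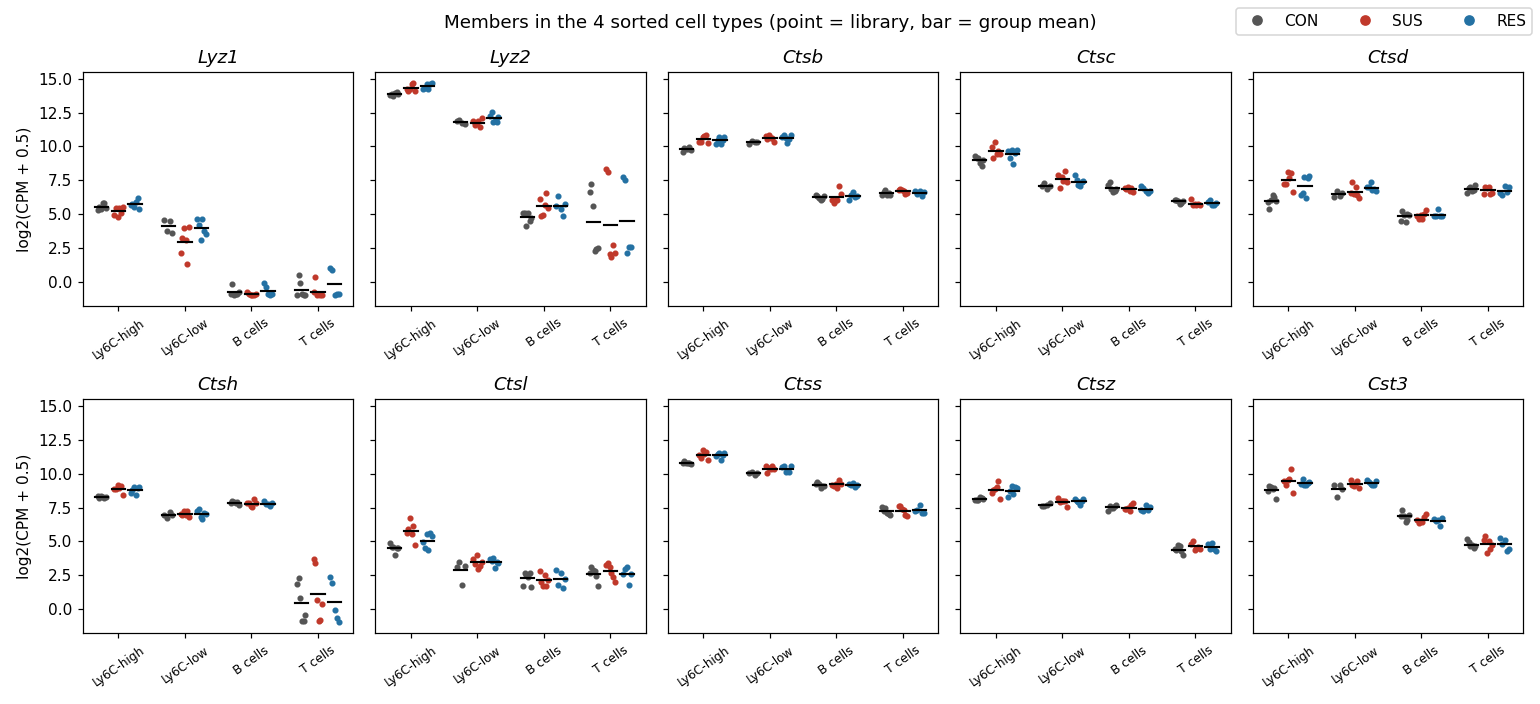
Level of each member as log2(CPM + 0.5) in every library, by cell type and condition, with a bar at each group mean. Lyz1 and Lyz2 were far lower in both lymphocyte types than in monocytes, Ctsh was low in T cells and high in B cells, and Ctsd stayed high in T cells.

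Over all conditions and in a fit of all 68 libraries, 5 of 10 members were called higher in Ly6C-high than in Ly6C-low monocytes, a call being an adjusted p under 0.05 and a log2 fold change beyond 1 in edgeR's quasi-likelihood test with Benjamini-Hochberg adjustment. These were Lyz1 (log2 fold change 1.73), Lyz2 (2.34), Ctsc (2.00), Ctsh (1.66) and Ctsl (1.92), and 25.5% of all genes tested were called in either direction. Ctsc codes for dipeptidyl peptidase I, which activates granule serine proteases, and Ctsl for an endopeptidase of the invariant chain and other substrates. Ctsb alone passed in the other direction, at 1270 ± 335 CPM in Ly6C-high and 1513 ± 233 CPM in Ly6C-low monocytes (SD, n = 18 and 16, log2 fold change -0.25, SE 0.08, adjusted p = 0.00485). Cst3 was at 614 ± 223 and 594 ± 112 CPM in these monocytes (SD, n = 18 and 16), with a log2 difference of 0.06 (SE 0.11) that did not pass.

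Against lymphocytes, more members were called, beside a larger share of all genes. Against B cells 9 members were higher in Ly6C-high monocytes (38.0% of genes called) and 7 in Ly6C-low monocytes (37.3%). Ctsh was the member not called between Ly6C-high monocytes and B cells. Its log2 fold change of 0.85 (SE 0.35) passed the adjusted p (0.0318 in edgeR's quasi-likelihood test) but not the fold threshold. With DESeq2 it did not pass the adjusted p. Against T cells 9 members were higher in Ly6C-high monocytes (42.2%) and 8 in Ly6C-low monocytes (36.7%). Ctsd was the member not called between Ly6C-high monocytes and T cells, with a log2 fold change of 0.15 (SE 0.13), and over CON libraries alone that value was -0.84. B cells were higher than T cells for Ctsc, Ctsh, Ctss, Ctsz and Cst3 and lower for Ctsd and Lyz1 (26.0% of genes called), and Lyz1 turned to 2.37 higher on the log2 scale without T-cell libraries 53 to 59, which stand apart. Ctsh had the widest of these steps, at 225 ± 23.5 CPM in B and 2.46 ± 3.67 CPM in T cells (SD, n = 17 and 17, log2 fold change 6.65, SE 0.46).

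Levels can be compared between members only per length. In CPM per kilobase of the principal transcript in CON libraries of Ly6C-high monocytes, Lyz2 was the highest level (11489), followed by Ctss (1318) and Cst3 (525), and Ctsl was the lowest (3.68). The 10 members took 2.04 ± 0.139% of all counts in CON, 2.46 ± 0.344% in SUS and 2.65 ± 0.424% in RES libraries of Ly6C-high monocytes (SD, n = 6 each), most of it from Lyz2. In Ly6C-low monocytes the shares were 0.854, 0.908 and 0.998%.

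Most members were higher in Ly6C-high monocytes of defeated mice. In SUS against CON, 9 of 10 members rose at an adjusted p under 0.05, where 8.78% of all 16955 genes tested did, and Ctsd and Ctsl also passed the fold threshold, which 2.28% of all genes passed upwards. In RES against CON, 6 of 10 rose, beside 3.71% of all genes, and Ctsd alone passed the fold threshold, beside 0.531%. With 1 library left out, the RES count fell to 1 (without RES library 9 or 18), 2 (without RES library 15 or CON library 1) or 3 (without CON library 7). Over all 10 members the median log2 fold change was 0.68 in SUS and 0.57 in RES, against -0.05 and -0.03 over all genes tested. These comparisons share the CON libraries, and in bulk libraries fewer cells of a type and less RNA per cell cannot be told apart.

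**Figure D2:**
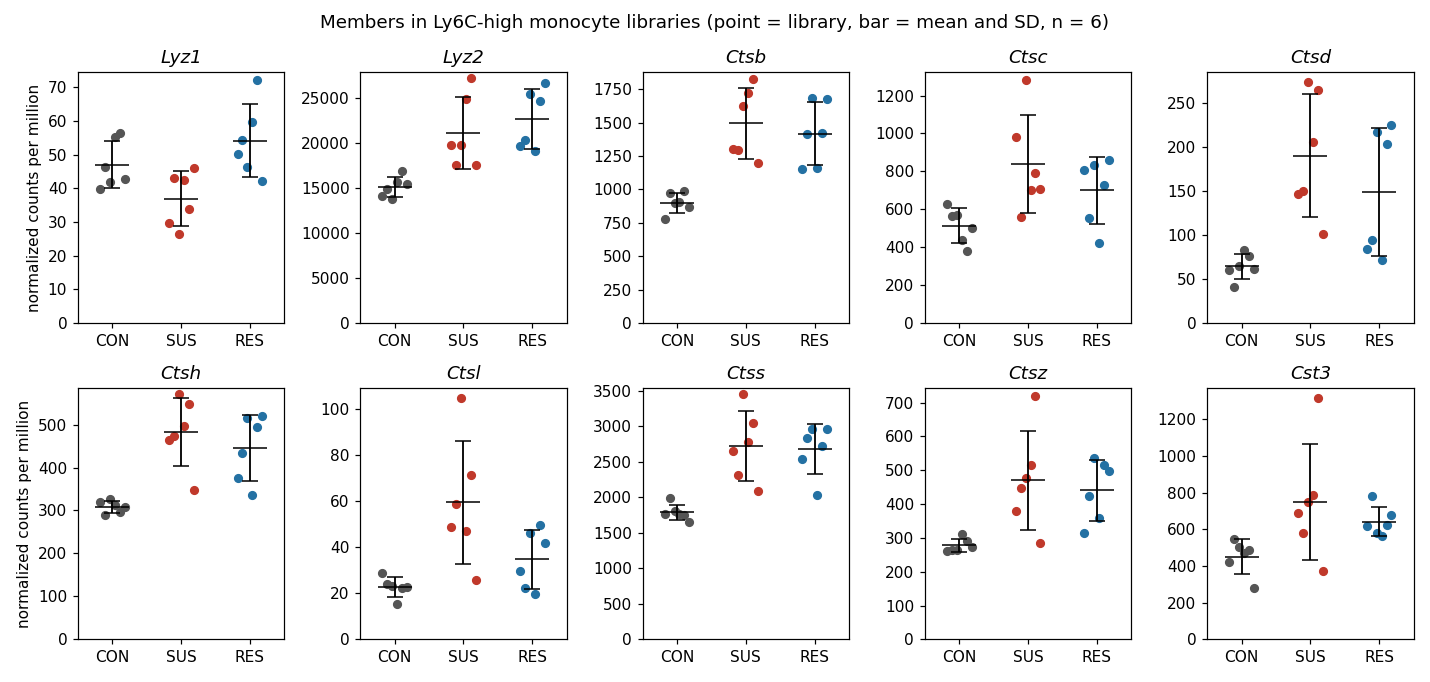
CPM of each member in the 18 libraries of Ly6C-high monocytes, with the mean and SD of each group (n = 6). Every SUS library lies above every CON library for Lyz2, Ctsb, Ctsd, Ctsh and Ctss, and RES libraries of Ctsd fall into a lower and a higher set of 3.

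Ctsd, the lysosomal aspartic protease (chr7:142375911-142388038, minus strand), had the largest log2 fold change of the members in both comparisons, though in SUS, with red-cell markers as a covariate, Ctsl was at 0.97 and Ctsd at 0.95. Its 6 CON libraries were at 60.4, 41.2, 65.6, 83.1, 76.4 and 61.5 CPM. Its SUS libraries were at 147, 151, 274, 206, 265 and 101 CPM. Its RES libraries were at 84.1, 94.2, 217, 72.2, 204 and 225 CPM. SUS did not overlap CON, whereas RES libraries 3, 6 and 12 lay at 72.2 to 94.2 CPM, within or just above the CON range, and RES libraries 9, 15 and 18 lay within the SUS range. The log2 fold change over CON was 1.52 in SUS (SE 0.28, adjusted p = 0.00177, edgeR's quasi-likelihood test with Benjamini-Hochberg adjustment) and 1.19 in RES (SE 0.28, adjusted p = 0.0213). Without library 9, 15 or 18, or without CON library 1, the RES call was lost.

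Ctsl, a cysteine endopeptidase (chr13:64359337-64370890, minus strand), had the lowest level per length of the cathepsins. Its CON libraries ran from 15.4 to 28.9 CPM with a median of 23.0 CPM. SUS libraries ran from 25.8 to 105 CPM with a median of 54.0 CPM. RES libraries ran from 19.6 to 49.7 CPM with a median of 35.8 CPM. The lowest SUS library, library 17, lay inside the CON range, and RES overlapped CON and SUS. Ctsl rose in SUS (log2 fold change 1.35, SE 0.27, adjusted p = 0.00231) and did not pass in RES (0.60, SE 0.26, adjusted p = 0.178).

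Lyz2 rose in both groups of defeated mice. Its CON libraries ran from 13797 to 16917 CPM with a median of 15127 CPM. SUS libraries ran from 17499 to 27217 CPM with a median of 19798 CPM, and RES libraries from 19063 to 26673 CPM with a median of 22493 CPM. Neither group of defeated mice overlapped CON. The log2 fold change was 0.45 in SUS (SE 0.13, adjusted p = 0.0268) and 0.57 in RES (SE 0.13, adjusted p = 0.0211). Lyz1 did not pass in either group. It was at 47.1 ± 7.10 CPM in CON, 36.9 ± 8.08 CPM in SUS, but 54.2 ± 10.8 CPM in RES (SD, n = 6 each), with log2 fold changes of -0.38 (adjusted p = 0.143) and 0.19 (adjusted p = 0.57).

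Set against its neighbour, Lyz1 was at 3.10 ± 0.290 CPM per 1000 CPM of Lyz2 in CON libraries, from 2.78 to 3.53. In SUS it was at 1.81 ± 0.594, from 1.24 to 2.63, and in RES at 2.45 ± 0.621, from 1.58 to 3.14 (SD, n = 6 each). All SUS libraries lay below all CON libraries on this ratio, and RES overlapped both. In Ly6C-low monocytes the ratio averaged 4.84 ± 1.67 in CON libraries, 2.51 ± 1.54 in SUS and 3.78 ± 1.67 in RES (SD, n = 4, 6 and 6), with overlap between all groups. The ratio was formed after the levels had been seen and is given without a test.

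**Figure D3:**
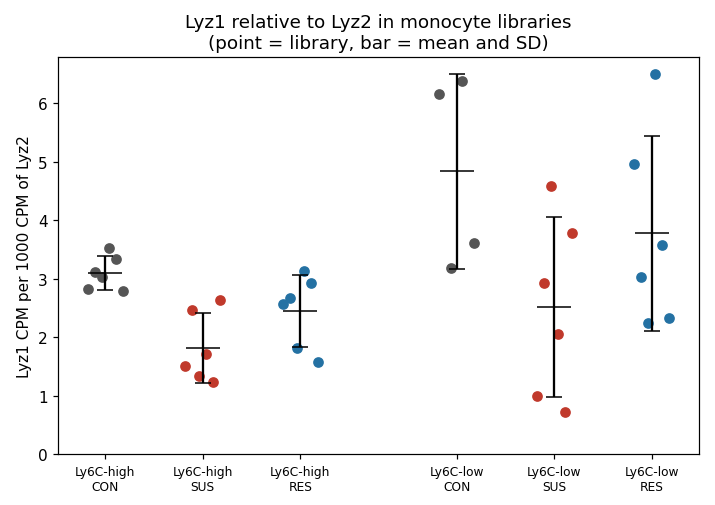
Lyz1 CPM per 1000 CPM of Lyz2 in each library of Ly6C-high and Ly6C-low monocytes, by condition. In Ly6C-high monocytes the SUS libraries end at 2.63, below the lowest CON library at 2.78.

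Ctsb, Ctsh, Ctss and Ctsz, the other cysteine cathepsins that rose in both groups of defeated mice, moved by less than Ctsd. Ctsb (chr14:63122462-63145923), a cathepsin with endopeptidase and dipeptidase activity, went from 777 to 986 CPM in CON libraries (median 899.7) to between 1194 and 1826 CPM in SUS (median 1464) and between 1150 and 1683 CPM in RES (median 1419). Neither range overlapped CON, with log2 fold changes of 0.70 (SE 0.13, adjusted p = 0.00178) and 0.64 (SE 0.13, adjusted p = 0.0138). Ctss (chr3:95526786-95556403) went from 1649 to 1984 CPM in CON (median 1762) to between 2090 and 3444 CPM in SUS (median 2715) and between 2035 and 2959 CPM in RES (median 2777). It did not overlap CON in either group, and its log2 fold change was 0.57 in both (SE 0.12, adjusted p = 0.00426 in SUS and 0.0153 in RES).

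Ctsh (chr9:90054152-90076089) lay between 290.1 and 327 CPM in CON, against 347 and 571 CPM in SUS and 336 and 520.1 CPM in RES, with log2 fold changes of 0.61 (SE 0.13, adjusted p = 0.00368) and 0.52 (SE 0.13, adjusted p = 0.0267). Its ranges in both groups of defeated mice lay above CON. Ctsz (chr2:174427493-174439039, minus strand), a carboxypeptidase that can also bind integrins, lay between 261 and 311 CPM in CON, 286 and 719.6 in SUS, and 316 and 535 in RES. It overlapped CON in SUS through library 17 and did not overlap in RES, with log2 fold changes of 0.73 (SE 0.17, adjusted p = 0.00756) and 0.65 (SE 0.17, adjusted p = 0.0322).

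Ctsc and Cst3 passed in SUS and not in RES, and neither passed between SUS and RES. Ctsc (chr7:88278085-88310888) lay between 378 and 626 CPM in CON, 558 and 1280 CPM in SUS (log2 fold change 0.67, SE 0.19, adjusted p = 0.0206) and 422 and 859.6 CPM in RES (0.44, SE 0.19, adjusted p = 0.169). Its groups overlapped. Cst3 (chr2:148871722-148875692, minus strand) lay between 279.7 and 549 CPM in CON, 375 and 1319 CPM in SUS (0.71, SE 0.21, adjusted p = 0.0293) and 564 and 782 CPM in RES (0.49, SE 0.21, adjusted p = 0.171). RES libraries of Cst3 did not overlap CON, whereas SUS libraries did and had the larger spread. Counted over members, 5 of 10 did not overlap between SUS and CON, where 4.68% of all genes had every SUS library above every CON library, and 6 of 10 did not overlap between RES and CON, where 2.85% did.

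Between SUS and RES no member passed in Ly6C-high monocytes, and 1 of 16955 genes did (0.00590%). At an unadjusted p under 0.05, 2 members and 620 genes differed, and DESeq2 passed 0 members. Lyz1 was lower in SUS (log2 fold change -0.57, approximate 95% interval -0.90 to -0.24, adjusted p = 0.973 in edgeR's quasi-likelihood test). Ctsl was higher in SUS (0.75, approximate 95% interval 0.24 to 1.26, adjusted p = 0.999 in the same test). The other intervals held 0 and reached at most 0.87 (Ctsd) upwards and -0.38 (Lyz2) downwards.

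**Figure D4:**
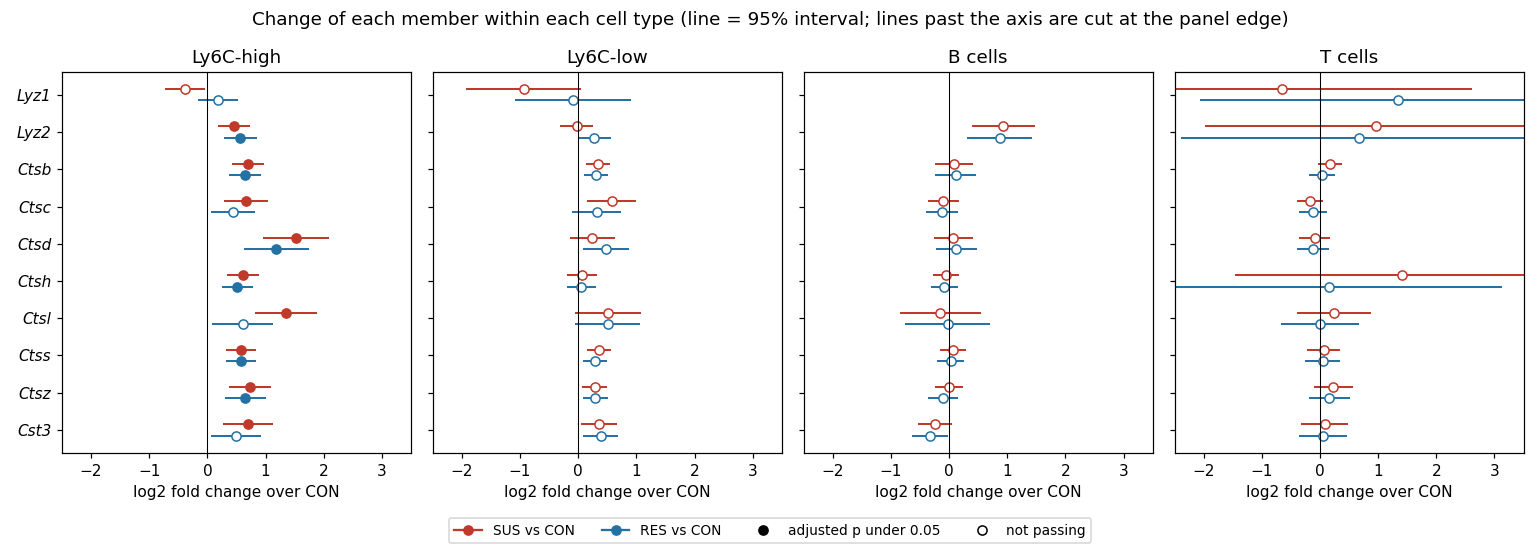
Log2 fold change over CON of each member in SUS and RES with its approximate 95% interval, by cell type. Points are filled at an adjusted p under 0.05. Filled points occur in Ly6C-high monocytes alone, and Lyz1, Lyz2 and Ctsh in T cells have intervals wider than the panel.

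Red-cell transcripts moved with the conditions in these libraries. The summed level of 6 red-cell markers (hemoglobins, Alas2 and Slc4a1) was 343 to 1215 CPM in CON, against 1097 to 8988 CPM in SUS and 1077 to 4348 CPM in RES, and 6 of 6 passed the test upwards in SUS. The mean of log2(CPM + 0.5) over the 6 markers was then used as a covariate. With it, 0 of 10 members passed edgeR's quasi-likelihood test in SUS or in RES (lowest adjusted p = 0.593 and 0.957). Over all genes 1 and 0 were left of 2139 and 842. Ctsd then had log2 fold changes of 0.95 and 0.71. Condition and red-cell RNA cannot be told apart in this fit, since only the lowest SUS and RES libraries overlapped CON in the summed level.

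Other marker lists moved as well. The sum of 4 granule progenitor markers was 3.74 to 31.8 CPM in CON, against 12.1 to 143 in SUS and 20.1 to 83.5 in RES, and 1 of 4 passed upwards in each group. Among them Prtn3, a granule protease that Ctsc activates, averaged 2.25, 26.8 and 17.2 CPM. The sum of 7 neutrophil markers was 14.6 to 359, 22.0 to 1187 and 6.30 to 617 CPM, with median log2 fold changes of 1.12 in SUS and 0.68 in RES over the 6 tested and none of them past the test. The lowest neutrophil sum was that of RES library 18 (6.30 CPM) and the highest that of SUS library 11 (1187 CPM). The sum of 6 dendritic cell markers was 146 to 176 CPM in CON libraries, 64.2 to 118 CPM in SUS libraries and 103 to 167 CPM in RES libraries. The sum of 6 platelet markers averaged 8.25, 24.8 and 14.7 CPM in CON, SUS and RES, with 2 of 6 past the test in SUS. The sum of 5 markers shared by monocytes averaged 2102, 2645 and 2783 CPM, with 1 of 5 past the test in each group, and the part of these lists in the members' values was not tested.

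In Ly6C-low monocytes no member passed, in edgeR's quasi-likelihood test, in SUS or in RES against CON, beside 0.241% and 0.0256% of genes. At an unadjusted p under 0.05, 5 of 10 members differed in each comparison, all of them upwards, beside 1857 (SUS) and 1888 (RES) of 19521 genes in either direction, and DESeq2 passed 0. The median log2 fold change of the 10 members was 0.31 in SUS and 0.30 in RES, against -0.01 over all genes in both. Ctsb was at 1144 to 1365 CPM in 4 CON libraries, 1308 to 1866 CPM in SUS and 1233 to 1842 CPM in RES. Its ranges overlapped, with log2 fold changes of 0.34 (SE 0.10, adjusted p = 0.176) and 0.31 (SE 0.10, adjusted p = 0.254). Ctsd was at 88.3 ± 13.9, 105 ± 33.7 and 125 ± 21.1 CPM (SD, n = 4, 6 and 6), with log2 fold changes of 0.24 and 0.48 that did not pass. Lyz2 was at 3580 ± 358, 3525 ± 569 and 4428 ± 894 CPM (SD, n = 4, 6 and 6).

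In B cells 9 members could be tested, Lyz1 being at 0 to 0.428 CPM, and none passed in edgeR's quasi-likelihood test in SUS (0.00568% of genes) or RES (0%), nor in DESeq2. At an unadjusted p under 0.05 there were 1 and 2 members, beside 602 and 560 of 17620 genes. Lyz2 was the one in SUS, at 28.8 to 93.6 CPM against 16.8 to 34.1 CPM in CON (log2 fold change 0.93, SE 0.27, adjusted p = 0.807), with overlap, and in RES it was at 29.1 to 79.2 CPM (0.87, SE 0.28, adjusted p = 1.00). The other in RES was Cst3, at 92.9 ± 13.2 CPM against 117 ± 26.4 CPM in CON (SD, n = 5 and 6, log2 fold change -0.33, SE 0.15). Like Lyz2, the monocyte transcript Fn1 was higher on average in B-cell libraries of defeated mice. Its means were 8.17, 16.7 and 20.6 CPM in CON, SUS and RES, and its part in the Lyz2 values was not tested. Ctsh and Ctss, at 223 and 598 CPM in SUS B cells, had log2 fold changes between -0.08 and 0.06.

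In T cells no member passed in edgeR's quasi-likelihood test in SUS (0.0424% of genes) or RES (0%), at an unadjusted p under 0.05 the count was 0, and DESeq2 passed 0. Lyz2 split the T-cell libraries by library number and not by condition. It was at 47.2 to 321 CPM in the 7 libraries numbered 53 to 59 and at 3.01 to 6.10 CPM in the 10 numbered 60 to 69. Its log2 fold change in SUS was 0.97 (SE 1.49) with all libraries and -0.22 without the first set. Fn1 was at 10.9 to 111 CPM in the first set and 0.468 to 5.18 CPM in the second, and Ctsh at 1.22 to 12.5 CPM and 0 to 1.07 CPM. Each condition had libraries in both sets, and the part of monocyte RNA in these Lyz2 and Ctsh values was not tested. Ctsd was steadier, at 83.1 to 140.4 CPM over all 17 libraries.

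**Figure D5:**
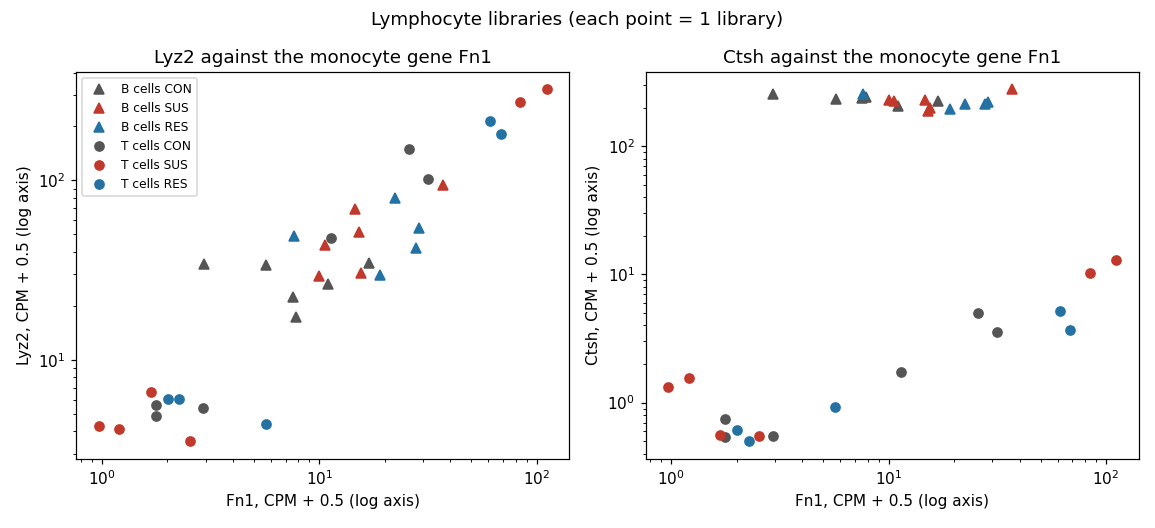
Lyz2 and Ctsh against the monocyte transcript Fn1 in each B-cell (triangles) and T-cell (circles) library, as CPM + 0.5 on log axes. T-cell libraries 53 to 59 stand apart at higher Fn1, Lyz2 and Ctsh, while Ctsh in B cells stays near its mean of 225 CPM at any Fn1.

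Differences in the change itself were tested as interactions in the fit of all 68 libraries. Libraries of different cell types were treated as independent there, so mice that they may share are not accounted for. The SUS change was larger in Ly6C-high than in Ly6C-low monocytes for 1 of 10 members, Ctsd (difference of log2 fold changes 1.31, SE 0.32, adjusted p = 0.0454), beside 0.260% of genes. Of the 68 libraries, 14 were left out in turn in this fit, those of the groups of 4 or 5, and none of Ly6C-high monocytes. The Ctsd difference was lost without any 1 of the 4 CON libraries of Ly6C-low monocytes, without B-cell library 40 or 49 or T-cell library 55 or 64 (all RES), and with both monocyte types fitted alone. Against B cells the SUS change was larger for 7 members, Ctsb, Ctsc, Ctsd, Ctsl, Ctss, Ctsz and Cst3, by 0.55 to 1.55 on the log2 scale (4.02% of genes). Against T cells it was larger for Ctsc (0.86) and Ctsd (1.65), beside 2.20% of genes. Without T-cell libraries 53 to 59, a choice made after seeing the data, 1 member differed from T cells and 0 from Ly6C-low monocytes. For Lyz1, Lyz2 and Ctsh the standard errors were 0.83 to 1.60, so the intervals were wide and these differences could not be decided. This fit estimates the spread of a gene over all cell types together, and Lyz2 ran from 3.01 to 321 CPM in T cells. In the fits within a cell type, the standard error of the SUS change of Lyz2 was 0.13 in both monocyte types.

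The RES change was larger in Ly6C-high than in Ly6C-low monocytes for 0 members (0.0330% of genes) with edgeR and with DESeq2, and 1 member, Ctsd, had an unadjusted p under 0.05. Against B cells it was larger for Ctsz (0.77, adjusted p = 0.0385), beside 0.726% of genes, and against T cells for Ctsd (1.32, adjusted p = 0.0308), beside 0.256%. The Ctsz difference was lost without B-cell library 37, 40 or 46, and the Ctsd difference without T-cell library 58.

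Other genes of the lysosome gave the members a setting. Of 13 other lysosomal peptidases, 3 rose in SUS against CON in Ly6C-high monocytes, where 8.78% of all genes rose: the asparaginyl endopeptidase Lgmn, from 76.7 to 145 CPM (log2 fold change 0.88), the carboxypeptidase Ctsa (0.74) and the aspartic protease Napsa (0.72). Ctsw, a cathepsin of cytotoxic lymphocytes, fell from 3.49 to 0.899 CPM (-1.98). In RES, Lgmn (0.86) and Ctsa (0.64) rose. Of 8 inhibitors of the cystatin family, 2 were high enough to test. Cstb, a cytosolic inhibitor of cathepsins, rose in SUS from 11.8 to 30.2 CPM (1.34, adjusted p = 0.00237 in edgeR's quasi-likelihood test) and was at 19.5 CPM in RES (0.71, adjusted p = 0.112).

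Of 31 lysosomal membrane proteins and hydrolases, 14 rose in SUS and 4 in RES, and none fell, beside the 8.78% and 3.71% of all genes that rose. Acp5, tartrate-resistant acid phosphatase, passed the fold threshold, from 2.69 to 8.66 CPM (1.65). The list's median log2 fold change was 0.51 in SUS and 0.46 in RES, against -0.05 and -0.03 over all genes. Lamp1, Hexa, Psap and Npc2 rose in both groups of defeated mice. The 4 transcription factors of the MiT family that act on lysosomal genes, Tfeb, Tfe3, Mitf and Tfec, had adjusted p between 0.396 and 0.924 in SUS and 0.329 and 0.96 in RES with edgeR. Tfeb was at 85.4, 92.6 and 87.6 CPM in CON, SUS and RES. The 6 other genes of the lysozyme family were too low to test. In Ly6C-low monocytes the median log2 fold changes of the peptidases were 0.13 in SUS and 0.17 in RES, and those of the membrane proteins and hydrolases 0.13 in both.

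The MiT factors bind the E-box CACGTG, and its extended form TCACGTGA is typical of lysosomal genes. Among the 250 bases before the start site in RefSeq (GRCm38.p6), of 8 members with an entry 2 held CACGTG (Ctsd and Ctsl), a motif that reads the same on both strands, beside 6.02% of 32851 promoters. TCACGTGA, which contains CACGTG, was in 1 of the 8, Ctsd, beside 0.785%. Ctsb and Ctsh had no entry, and a link between the motif and the change in SUS was not tested. Shown is every CACGTG in these windows, each read on the minus strand with the E-box core in capitals.
Ctsd at chr7:142388057-142388077: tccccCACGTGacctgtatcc
Ctsd at chr7:142387910-142387935: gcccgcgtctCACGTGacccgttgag
Ctsl at chr13:64370741-64370766: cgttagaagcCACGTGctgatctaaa
The second Ctsd site holds the extended form, and it and the Ctsl site lie within the annotated span of their genes. The whole Ctsl window, chr13:64370521-64370770, lies within that span, downstream of the outermost annotated start of Ctsl. The PU.1-type motif GAGGAAGT, searched on both strands, was in Ctsc alone, beside 2.44% of promoters. These matches describe letters, and binding was not measured.

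Across the 12 means of cell type and condition, members differed in how alike their levels were (Pearson's r of log2(CPM + 0.5), points sharing libraries and depth). Lyz1 and Lyz2 had r = 0.99, and Ctsd had its lowest r, -0.24, with Ctsh. Among 10567 genes, the level most like that of Ctsd was Arhgap9 (r = 0.98), followed by Pam and Ier3 (0.95 each). For Lyz2 these were Ccl9, Arhgef37 and Cysltr1, for Cst3 C5ar2, Gm2a and Xbp1, and for Ctsl Pkm, Prdx1 and Itm2b.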

How the data were processed

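RNA-seq was read from 1 table in which the authors deposited raw counts per gene and library. Per the study's methods and processing notes, stranded total RNA reads were aligned to mm10 with HISAT2 and counted with HTSeq against Ensembl release 90. The treatment of strand and of multiply mapped reads in counting is not given in the sources used here. Of the table's 52636 gene identifiers, 52403 were in GENCODE M21, which gave symbols and coordinates. Libraries 52 and 70 were left out because their B-cell and T-cell markers went against their labels. Groups came from the labels, and no 2 of 171 library pairs within a group were identical.

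Counts were tested with edgeR 4.0.16 (R 4.3.3, limma 3.58.1), quasi-likelihood test, TMM scaling, low-count filter by group, and Benjamini-Hochberg adjustment over all genes tested. Conditions were fitted within a cell type, cell types and interactions in 1 fit of 12 group means with all libraries treated as independent. Calls needed a log2 fold change beyond 1 in either direction at an adjusted p under 0.05, and interactions the adjusted p alone. Intervals are 1.96 standard errors. The code was tested on simulated data. Alternatives were DESeq2 1.42.0, its size factors in edgeR, other filters and scalings, a red-cell covariate, CON libraries alone, 2 groups or cell types alone, libraries 52 and 70 kept, each library left out in turn (in the fit of all cell types, the 14 of groups with 4 or 5 libraries), and, added after seeing the data, T-cell libraries 53 to 59 left out. Depth was 19769835 to 67038231 counts per library. Members and gene lists were chosen with earlier results of these data known. The rule named all members and at most 3 called genes of each list in each direction, and list genes past the adjusted p alone were named after their values were seen. Likeness was Pearson's r over 12 group means, for genes with a group mean of at least 5 CPM.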

Additional observations from a re-analysis of the deposited data

Results flagged for a closer look

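In 5 of 120 sets of values for a member in a group, 1 library stood apart from the rest by Dixon's test, and chance gives about 1 in 20. Ctsc was at 67.9 CPM in T-cell SUS library 54 against 49.4 to 53.2 CPM in the other 5. Ctsd was at 42.0 CPM in B-cell RES library 43 against 28.1 to 28.9 CPM, and Ctss at 206.5 CPM in T-cell RES library 61 against 136 to 156 CPM. Lyz1 was at 0.381 CPM in B-cell CON library 38 and at 0.741 CPM in T-cell SUS library 57, beside group means of 0.0951 and 0.144 CPM.

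By the interaction test the change from CON was larger in Ly6C-high monocytes than elsewhere in 12 cases, as differences of log2 fold changes. In SUS these were Ctsd at 1.31 against Ly6C-low monocytes, and Ctsb at 0.65, Ctsc at 0.81, Ctsd at 1.49, Ctsl at 1.55, Ctss at 0.55, Ctsz at 0.77 and Cst3 at 0.98 against B cells. Against T cells they were Ctsc at 0.86 and Ctsd at 1.65. In RES they were Ctsz at 0.77 against B cells and Ctsd at 1.32 against T cells.

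The libraries left out held members above or below the CON range of the cell type on their label, in CPM scaled here over all 70 libraries. Library 52, labelled as B cells, held Ctsb at 102.6 CPM (CON B cells 65.7 to 85.2), Ctsd at 120.6 CPM (20.2 to 35.6) and Ctsl at 5.98 CPM (at most 5.97). Below that range it held Ctsh at 0.198 CPM (203.5 to 247), Ctss at 126 CPM (474 to 635) and Ctsz at 20.3 CPM (147 to 210.2). Lyz2 at 4.99 CPM (16.7 to 33.7), Ctsc at 59.2 CPM (98.7 to 159) and Cst3 at 21.9 CPM (84.4 to 158) also lay below it. Library 70, labelled as T cells, held Ctsc at 98.2 CPM (CON T cells 55.5 to 66.0) and Ctsh at 212 CPM (0.0425 to 4.52). It also held Ctss at 545 CPM (124 to 193), Ctsz at 187 CPM (15.1 to 25.8) and Cst3 at 92.1 CPM (22.5 to 35.6). Below the range were Ctsd at 27.9 CPM (94.4 to 140.1) and Ctsb at 81.3 CPM (85.6 to 108.5).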

How the results depend on the processing

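Of 2178 recomputed log2 fold changes of single members, 2080 kept their direction and their side of the adjusted p threshold. Of 619 recomputed counts of members, 573 stayed within a set margin of the main count. All 120 levels stayed within 1 SD with DESeq2 size factors. Members called in Ly6C-high monocytes, 2 in SUS and 1 in RES, became 9 and 6 by adjusted p alone, and 0 and 0 with the red-cell covariate by either rule. With each library left out in turn, 7 to 9 members passed the adjusted p in SUS and 1 to 7 in RES (main 9 and 6), and 0 to 1 were called in RES. RES counts fell to 2 and 3 without CON library 1 or 7, and to 1, 2 and 1 without RES library 9, 15 or 18. Genes called in SUS were 66.2% higher ones, against 47.6% with DESeq2 and 54.8% with its size factors, and in RES 53.3%, against 25.1% and 40.1%; called genes in RES numbered 169, and 506 with DESeq2. Between Ly6C-high and Ly6C-low monocytes, 5 calls became 2 over CON libraries alone, where calls over all genes fell from 6188 to 2570. CON libraries of Lyz2 still did not overlap, at 13797 to 16917 CPM in Ly6C-high and 3196 to 4002 CPM in Ly6C-low monocytes. Nor did those of Lyz1, Ctsc, Ctsh and Ctsl. The Ctsd interaction with Ly6C-low monocytes became 0 without T-cell libraries 53 to 59, with DESeq2 size factors, without a filter, with libraries 52 and 70 kept and with 2 cell types (left out 0 to 1). The 7 SUS differences from B cells became 4 with 52 and 70 kept. The 1 RES difference from B cells became 2 with DESeq2 and 0 with its size factors, without a filter, with 52 and 70 kept and with 2 cell types (left out 0 to 2). The 2 SUS differences from T cells became 1 without libraries 53 to 59 and with 2 cell types. The 1 RES difference from T cells became 0, 0 and, with 52 and 70 kept, 2 (left out 0 to 2). Signs turned for Cst3 in RES with the red-cell covariate (-0.0323), Lyz2 in T cells in SUS without libraries 53 to 59 (-0.22) and in RES with libraries left out in turn (-0.0781 to 1.34, lowest without library 55), Cst3 between monocyte types with DESeq2 (-0.0049), its size factors (-0.0049) and CON alone (-0.0940), Ctsd over CON alone against Ly6C-low monocytes (-0.45) and T cells (-0.84), and Lyz1 (2.37) and Lyz2 (3.16) between B and T cells without libraries 53 to 59. The cause was not tested. No paired analysis was possible because the labels name no mouse and replicate numbers were given in accession order. Lyz1 in lymphocytes, at 0 to 1.56 CPM, is limited by depth.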

Other observations

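The genes most like some other members across the 12 group means were Atf3, Cds1 and Stard9 for Lyz1, Sirpb1a, Flna and Adgre5 for Ctsb, and Aco1, Kctd20 and Gm49342 for Ctsc. For Ctsh they were Rhbdf2, Unc93b1 and Ncf1, and for Ctsz Cnpy3, 5031439G07Rik and Ubl3. With a pseudocount of 0.1 CPM 1 of the 3 genes was kept for Lyz1 and 1 for Lyz2, and with 1 CPM 0 were kept for Lyz2. In Ly6C-high monocytes the dendritic cell marker Cd209a averaged 54.5 CPM in CON, but 5.67 in SUS and 25.3 in RES, and Vcan, a marker of Ly6C-high monocytes, 456, 1125 and 736 CPM.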
